A study of Homo sapiens with 6 samples.

Results

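The genes described here encode the proteins of the cytosolic ribosome, the machine that translates nuclear mRNA into protein. They were chosen by name as protein-coding genes of GENCODE 44 whose symbol is RPS or RPL with a number and an optional short ending, together with RPSA, RPLP0, RPLP1 and RPLP2. The rule took 84 of 63140 genes, of which 32 belong to the small (40S) subunit and 52 to the large (60S) subunit. It leaves out FAU, RACK1 and RPL36AL, which also encode ribosomal proteins, and these are given separately. In all, 82 of the 84 had enough counts to be tested. The other two are RPL3L, a form known from muscle, with counts of 2, 4 and 0 in the ACM libraries and of 2, 0 and 2 in the UCM libraries, and RPL10L, a form known from testis, which had 1 count in a single UCM library.

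RNA was measured in BT-549 cells, an established human triple negative breast cancer line, after 24 h in adipocyte-conditioned medium (ACM, 3 libraries) or in unconditioned medium (UCM, 3 libraries). All 6 libraries came from unmodified (WT) cells that carry no transgene. ACM had been collected from OP9 mouse cells turned into adipocytes, and the sample labels give it at 50%, whereas the study's supplement describes it as undiluted. By that supplement, ACM was collected after adipocyte culture in alpha-MEM with little serum and with added albumin, oleate and insulin. The medium listed for BT-549 cells was RPMI with more serum and with insulin. The composition of UCM is not stated in the sources used here, so adipocyte secretions and the base medium cannot be told apart. The comparison asks how this abundant and normally steady gene family stood in cells that, in the study's description, accumulate lipid droplets in ACM. The droplets were described at a later time than this RNA, and in ACM that the supplement gives as diluted to 50%.

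Totals ranged from 17135270 to 21053214 expected counts per library, and the mean fragment length from 276 to 283 bases. Mitochondrial genes took 2.46 to 3.84% of counts in ACM and 2.12 to 3.52% in UCM. The labels call the cells epithelial, but of 7 epithelial markers only CDH1 averaged at least 1 CPM (counts scaled to library size, with TMM factors), and the 7 together reached 1.29 to 1.95 CPM in ACM and 1.61 to 2.79 in UCM. The 5 mesenchymal markers, VIM and SPARC among them, summed to 5952 to 6432 CPM in ACM and 5676 to 5987 in UCM. ESR1 and PGR, the hormone receptors that triple negative cells lack, had no counts in any library, and ERBB2, the receptor whose amplification they lack, was measured at 25.4 to 32.4 TPM. Of 6 adipocyte markers ADIPOQ, LEP and CIDEC were at 0 in every library, and the 6 together stayed at or below 0.142 CPM. Of 3 leukocyte markers CD3E was at 0 everywhere, while the sum of the 3, nearly all of it CD68, was 12.3 to 29.3 CPM in ACM and 5.10 to 6.72 in UCM. That marker moved with the medium, and its part in the results below was not tested.

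A ribosome holds 1 copy of most of its proteins, so their genes are expressed together and at high levels. Their mRNAs are short, and most begin with a C followed by a run of pyrimidines, the terminal oligopyrimidine (TOP) tract. This tract lets mTOR, acting partly through the RNA-binding protein LARP1, turn translation of the whole family up or down with nutrients. Ribosomal proteins that are left unassembled can bind MDM2, the best known being RPL5 and RPL11, and so raise p53. Several members have a paralog encoded elsewhere in the genome, such as RPL22L1 for RPL22, whose protein can take the parent's place in the ribosome. These mRNAs have also left many processed pseudogenes in the genome, 1556 by name for the 84 genes, which together drew 1.10 to 1.20% as many counts as the genes themselves.

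Ribosomal protein mRNAs were among the most abundant in these cells. They took 3.83, 4.05 and 3.91% of all counts in ACM and 3.84, 4.29 and 4.16% in UCM (3.93% ± 0.111 against 4.10% ± 0.232, SD, n = 3). On the per-length scale of TPM (transcript share, scaled by length) they took 14.0, 14.5 and 14.1% in ACM and 14.4, 15.6 and 14.9% in UCM (14.2% ± 0.275 against 14.96% ± 0.587, SD, n = 3). The libraries of both groups overlapped in each of these shares. Of the 50 genes with the highest TPM in UCM, 24 were members of the family.

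RPL10, which completes the large subunit late in its assembly, had the highest level per length, with 4929, 5392 and 5321 TPM in ACM and 4707, 5426 and 5341 in UCM. RPL39 lines the exit tunnel for the new protein and stood next, at 5094, 4931 and 4446 TPM in ACM and 5648, 5681 and 5142 in UCM. The ranges of this pair over the 6 libraries overlapped, so their order was not resolved. Between media RPL10 overlapped, whereas all ACM values of RPL39 lay below its UCM values without passing the test (log2 FC −0.16, SE 0.07, edgeR adjusted p = 0.229). RPL8 (4257 ± 156 TPM in ACM, 4480 ± 259 in UCM), RPS27 (3815 ± 203 and 3986 ± 158) and RPL13 (4107 ± 228 and 3596 ± 279) followed (SD, n = 3). Over both groups 64 members lay above 1000 TPM. The 77 members that are not paralogs of another member ranged from 437 to 5186 TPM with a median of 1674, and RPS26 was the lowest of them. The paralogs lay below this range, with averages of 38.2 TPM for RPL22L1, 75.7 for RPL39L, 112 for RPL7L1, 120 for RPL26L1 and 130 for RPS27L. Levels of RPS29, RPS27 and RPS21 are less certain on this scale, because their effective lengths (38.0, 78.3 and 86.0 bases) are below 100 bases. The level of RPL14 is uncertain too. Its effective length ran from 326 to 602 bases over the libraries, and its TPM from 794 to 1594.

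**Figure D1:**
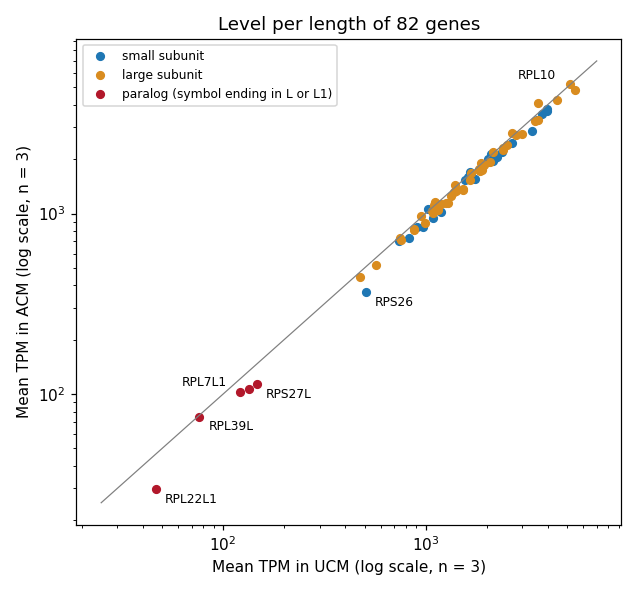
Mean TPM of 82 ribosomal protein genes in ACM against UCM, both on log scales, n = 3 libraries per group, with a grey line at equal levels. Most genes lie along the line from 437 to 5186 TPM, while the 5 tested paralogs lie apart below 150 TPM, and RPS26 and RPL22L1 fall visibly under the line.

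The TOP tract was looked up in RefSeq promoters of GRCh38.p14, in which 67 of the 84 members had an entry. A C at the annotated start followed by 4 bases that are each C or T stood in 43 of the 67 (64.2%), against 4.04% of all 27305 promoters. When the same letters could begin within 5 bases of the annotated start, 51 of 67 (76.1%) held them, against 21.1% of all promoters. The letters CCGGAAG, the core that ETS factors bind, were found on either strand in 23 (34.3%) against 10.7%, and AAGATGGC, a YY1-like core, in 7 (10.4%) against 3.03%. The windows printed next show this start for members whose levels are described further on. Each has 30 bases, the annotated first base of the mRNA is the 11th, and capitals mark the unbroken run of C and T that covers the start or begins beside it.
RPS6 at chr9:19380217-19380246, minus strand: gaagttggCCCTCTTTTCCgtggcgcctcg
RPLP1 at chr15:69452808-69452837, plus strand: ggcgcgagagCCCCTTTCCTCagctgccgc
RPL13A at chr19:49487598-49487627, plus strand: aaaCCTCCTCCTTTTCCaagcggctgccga
RPL22 at chr1:6199576-6199605, minus strand: cgctcaCCTCCCTTTCTaactccgctgccg
RPL22L1 at chr3:170870176-170870205, minus strand: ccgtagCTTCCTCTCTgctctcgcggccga
RPS27 at chr1:153990752-153990781, plus strand: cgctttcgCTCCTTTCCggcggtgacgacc
RPS27L at chr15:63157458-63157487, minus strand: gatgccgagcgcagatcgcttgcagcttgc
RPL26 at chr17:8383174-8383203, minus strand: gcgtgtagTTCTCTTCCCTTTTgcggccat
RPL26L1 at chr5:172958719-172958748, plus strand: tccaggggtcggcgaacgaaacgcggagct
RPS26 at chr12:56041908-56041937, plus strand: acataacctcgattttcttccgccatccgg

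The parents RPL22, RPS27 and RPL26 each had such a run of 9 to 14 bases, and so did the paralog RPL22L1, with 10. RPS27L and RPL26L1 had none at the annotated start. RPS26 had a run of C and T that began with T shortly after the annotated start, within the distance searched. Its first C lay beyond that distance, so the run did not count as a match. A match describes the letters at an annotated start and not the start used in these cells.

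Ribosomal protein mRNAs changed little between ACM and UCM. No member rose, and 3 fell, RPS26, RPL22L1 and RPS27L, at an adjusted p of 0.05 or less (edgeR's quasi-likelihood test, Benjamini-Hochberg over 14451 genes). Among all genes tested 5.56% were called, 3.35% as higher and 2.21% as lower. Among the 2400 genes averaging at least 100 CPM these shares were 9.75%, 5.38% and 4.38%. No member reached even an unadjusted p of 0.05 in the higher direction with edgeR, and no member was called higher by DESeq2. In the lower direction 11 members had an unadjusted p of 0.05 or less, against 11.5% of all genes and 18.1% of the abundant ones.

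Small differences leaned one way. The log2 fold change (log2 FC, ACM against UCM) was below 0 for 67 of the 82 tested members (81.7%), compared with 51.9% of all genes and 55.2% of abundant genes. The median was −0.08, beside −0.01 for all genes tested. Members share libraries and scaling, so the count of negative values carries no test. All 3 ACM values lay below all 3 UCM values for 14 members, and 15.1% of all genes and 21.6% of abundant genes were apart in the same way. Only RPL13 was apart in the other direction, as were 13.9% of all genes, and the groups overlapped for the other 67 members. On the TPM scale 25 members were apart lower and 1 higher, beside 14.6% and 11.0% of all genes and 21.5% and 13.2% of abundant genes.

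The precision bounds how far most members could have moved relative to the other genes of a library. CPM and TPM are shares of a library, so a change in mRNA per cell was not measured. Standard errors of the log2 FC ran from 0.06 to 0.15 with a median of 0.07. The 95% interval lay within ±0.58, the size of change the study used as its threshold, for 79 of 82 members, the exceptions being RPS26, RPL22L1 and RPL26L1. It lay within ±0.32 for 68. Nothing in the labels says whether the 3 libraries of a group came from cultures handled separately, so these intervals measure the spread between the libraries as they are.

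**Figure D2:**
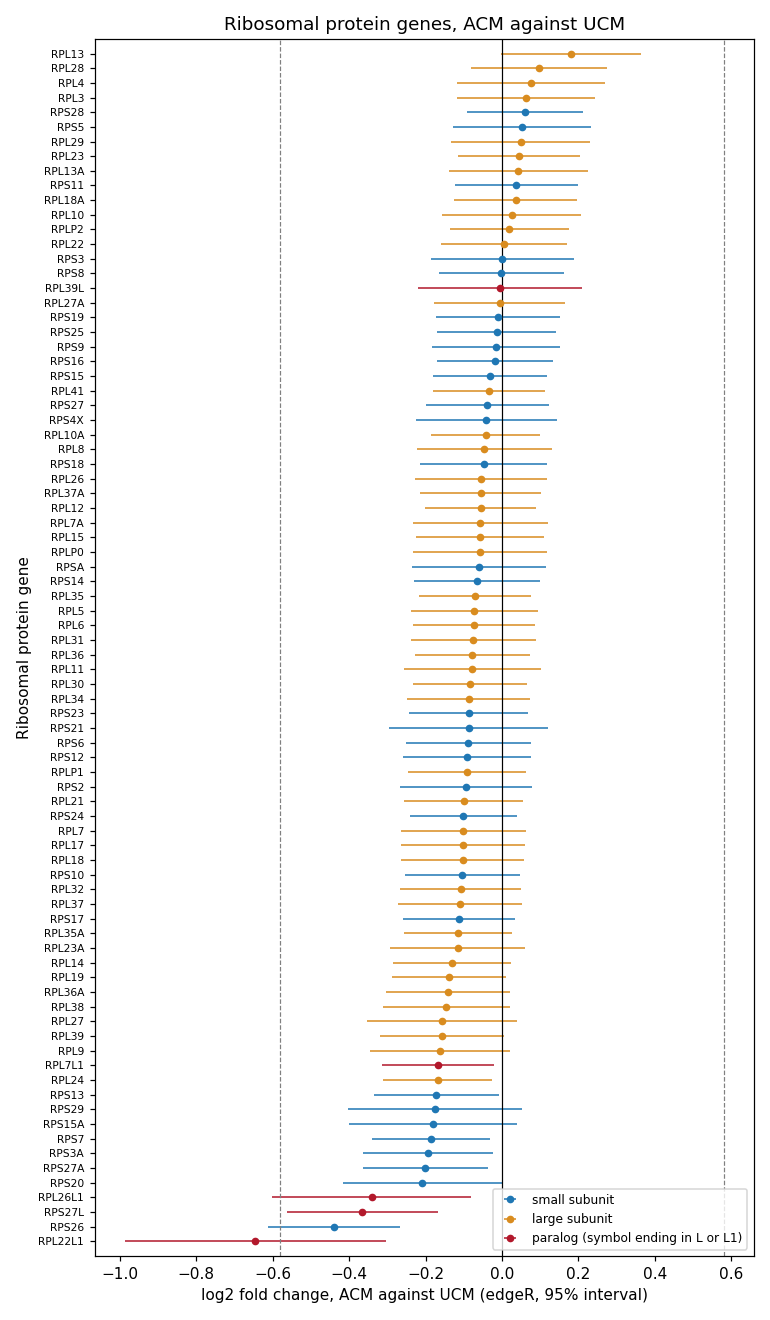
Log2 fold change of each tested member, ACM against UCM, with the 95% interval from edgeR (n = 3 libraries per group), coloured by subunit or as a paralog. The dashed lines mark ±0.58, the black line marks 0, and 67 of 82 points lie to its left, with RPL22L1, RPS26, RPS27L and RPL26L1 farthest out.

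Libraries of one group differed from each other by about as much. The median member stood at −0.07, 0.02 and −0.06 from its 6-library mean in ACM replicates 1 to 3 and at −0.05, 0.11 and 0.04 in UCM, on the log2 CPM scale. UCM replicate 2 was the highest of all 6 libraries for 61 members. ACM replicate 3 was the lowest for 34 members, UCM replicate 1 for 27 and ACM replicate 1 for 18. UCM replicate 1 therefore stood with the ACM libraries, and the groups overlapped in their medians, whose SD within groups was 0.07. The summed CPM of the family had a log2 ratio of −0.05.

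**Figure D3:**
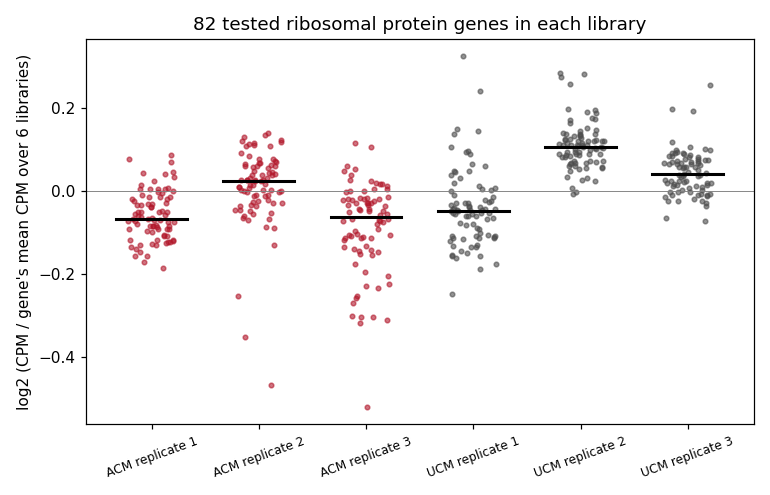
Each point is a tested member in a library, plotted as the log2 ratio of its CPM to its mean over the 6 libraries, and black bars are the medians of 82 members. The medians of ACM (red) run from −0.07 to 0.02 and those of UCM (grey) from −0.05 to 0.11, so the groups overlap, and UCM replicate 2 stands highest.

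RPS26 sits at the mRNA exit of the small subunit, where it touches the bases upstream of the start codon. The gene (ENSG00000197728) lies at chr12:56041351-56044697 on the plus strand. It had 103, 87.4 and 93.7 CPM in ACM and 123, 135 and 128 CPM in UCM. Every ACM library was lower than every UCM library, and the gap between the groups was larger than the spread within either. The means were 94.7 ± 7.79 against 129 ± 6.17 CPM (SD, n = 3), a log2 FC of −0.44 (SE 0.08, 95% interval −0.61 to −0.27, edgeR adjusted p = 0.0126) and a fold of 0.737. The counts behind these values ran from 1554 to 2168 in ACM and from 2196 to 2592 in UCM. TPM gave 366 ± 32.0 against 507 ± 19.9, also without overlap.

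RPS26 has many near copies. GENCODE names 36 pseudogenes after it, and 26.5% of the 100-base stretches of its canonical transcript occur in 12 other genes, so how RSEM shared reads among them bears on the count. With the counts of its pseudogenes added to each member, RPS26 was still called lower. It was not called without ACM replicate 2 (edgeR adjusted p = 0.0529), without UCM replicate 2 (0.0695) or without UCM replicate 3 (0.0613), and over all 19 alternatives the adjusted p ran from 9.96e-06 to 0.0695. TSR2, the chaperone that delivers RPS26 to the ribosome, had 37.2 ± 1.86 CPM in ACM and 40.0 ± 4.19 in UCM (log2 FC −0.11, SE 0.10, adjusted p = 0.561).

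RPL22L1 is the paralog of RPL22, and RPL22 protein is known to hold its expression down. The gene (ENSG00000163584) lies at chr3:170864875-170870208 on the minus strand. It had 7.55, 5.96 and 5.76 CPM in ACM and 10.3, 10.0 and 9.84 in UCM, from 106 to 159 counts in ACM and 169 to 218 in UCM. The groups did not overlap, and the means were 6.42 ± 0.981 and 10.1 ± 0.238 CPM (SD, n = 3). The log2 FC of −0.65 (SE 0.15, 95% interval −0.99 to −0.30, adjusted p = 0.0390 by edgeR) was the largest decrease in the family, at its lowest tested level. Its parent RPL22 had 284, 337 and 309 CPM in ACM and 302, 315 and 310 in UCM, where the UCM values fell inside the ACM range (log2 FC 0.01, SE 0.07, adjusted p = 0.973). Per length RPL22 was lower in every ACM library (490, 544 and 523 TPM against 570, 562 and 576), its effective length being 1.09 times as long in ACM, and with effective length offsets its log2 FC was −0.11 (edgeR adjusted p = 0.458).

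RPS27L, the paralog of RPS27, is a known p53 target gene. The gene (ENSG00000185088) lies at chr15:63125872-63158021 on the minus strand. It had 34.0, 34.7 and 30.7 CPM in ACM and 39.5, 45.3 and 43.3 in UCM, with no overlap. The means of 33.1 ± 2.11 and 42.7 ± 2.95 CPM (SD, n = 3) gave a log2 FC of −0.37 (SE 0.09, 95% interval −0.56 to −0.17, edgeR adjusted p = 0.0423). RPS27, a small subunit protein with a zinc finger, had 202, 226 and 206 CPM in ACM and 203, 229 and 220 in UCM, with overlap (log2 FC −0.04, SE 0.07, adjusted p = 0.806).

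The calls of RPL22L1 and RPS27L were less firm than that of RPS26. RPL22L1 was called in 11 and RPS27L in 12 of 19 alternative analyses, and both calls were lost when single libraries were left out. RPL22L1 was not called without replicate 2 or 3 of either medium (edgeR adjusted p = 0.0974 to 0.143), nor was RPS27L without any 1 of the ACM libraries or without UCM replicate 2 or 3 (0.0682 to 0.188). With RSEM's effective lengths as offsets the adjusted p from edgeR was 0.130 for RPL22L1 and 0.110 for RPS27L, against 0.0271 for RPS26, while the log2 FC stayed at −0.62, −0.35 and −0.44. Neither paralog shares any 100-base stretch of its canonical transcript with another gene.

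Of the other paralogs, RPL26L1 had 34.9, 29.3 and 28.2 CPM in ACM and 41.3, 42.4 and 33.4 in UCM. ACM replicate 1 exceeded UCM replicate 3, so the groups overlapped (log2 FC −0.34, SE 0.12, edgeR adjusted p = 0.117). It passed the test when all genes with at least 1 count in total were kept (adjusted p = 0.0197). RPL7L1, a factor of early large subunit assembly, had 224, 241 and 249 CPM in ACM and 258, 275 and 269 in UCM. These did not overlap, but the difference did not pass the test (log2 FC −0.17, SE 0.07, adjusted p = 0.161). RPL39L, known from the testis and from some tumours, was level at 23.7 ± 0.730 CPM in ACM and 23.8 ± 1.90 in UCM (log2 FC −0.01, 95% interval −0.22 to 0.21, adjusted p = 0.983). All 5 tested paralogs thus had a value below 0, with a median of −0.34, although RPL39L turned positive in 6 of the alternatives that kept all libraries.

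Set against its parent in each library, the share of the paralog says how the pair was divided. RPL22L1 made up 2.59, 1.74 and 1.83% of the counts of RPL22L1 and RPL22 together in ACM and 3.31, 3.09 and 3.08% in UCM. RPS27L made up 14.4, 13.3 and 13.0% of its pair in ACM and 16.3, 16.5 and 16.5% in UCM. Neither share overlapped between groups, and neither did that of RPL7L1 with RPL7 (18.2% ± 0.308 against 18.9% ± 0.365). An exact two-sided permutation test of each gave p = 0.1, the smallest that 3 against 3 libraries allow, and 0.167 after adjustment over the 5 pairs. The shares of RPL26L1 with RPL26 (6.58% ± 0.782 against 7.89% ± 0.890, exact p = 0.2) and of RPL39L with RPL39 (5.81% ± 0.565 against 5.23% ± 0.290, exact p = 0.3) overlapped. These shares rest on counts, and a longer mRNA draws more of them than a short one at the same level. As shares of the pair's TPM those of RPL22L1 and RPS27L still did not overlap, but RPL7L1 did, with 2.96, 2.86 and 3.26% in ACM and 3.25, 3.23 and 3.36% in UCM.

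**Figure D4:**
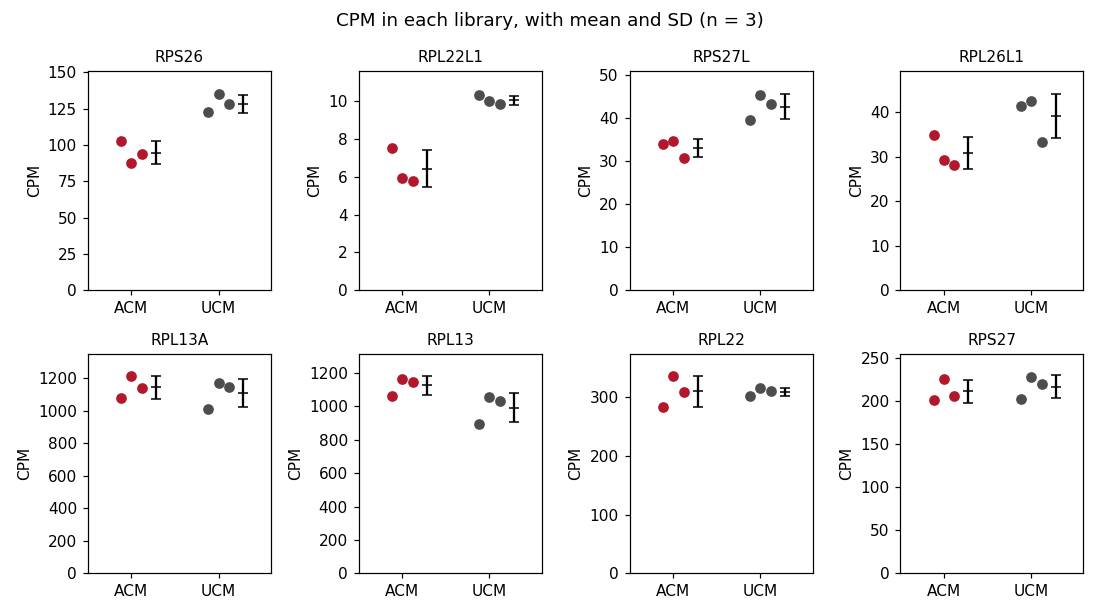
CPM of 8 members in each library, with the mean and SD of 3 libraries to the right of the points (ACM in red, UCM in grey). RPS26, RPL22L1 and RPS27L show no overlap between the groups, RPL26L1, RPL13A, RPL22 and RPS27 overlap, and the lowest ACM value of RPL13 is just above the highest UCM value.

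The 31 small subunit members without RPS27L had a median log2 FC of −0.09, with 27 below 0 and only RPS26 called. RPS6, the classic target of S6 kinase, had 928, 1017 and 984 CPM in ACM and 969, 1080 and 1066 in UCM, which overlap (log2 FC −0.09, SE 0.07, edgeR adjusted p = 0.523). After RPS26 and RPS27L, the small subunit members farthest below 0 were RPS20 (log2 FC −0.21, adjusted p = 0.213), RPS27A (−0.20, 0.135), RPS3A (−0.19, 0.161) and RPS7 (−0.19, 0.141), named after their values were seen. None of these 4 passed the test.

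The 46 large subunit members without paralogs had a median log2 FC of −0.07, with 35 below 0 and none called at either end of a range from −0.17 to 0.18. The stalk, formed by RPLP0, RPLP1 and RPLP2, recruits elongation factors. RPLP0 had 972 ± 47.5 CPM in ACM and 1012 ± 80.4 in UCM, RPLP1 569 ± 14.8 and 607 ± 37.9, and RPLP2 218 ± 9.85 and 215 ± 13.0 (SD, n = 3). All 3 overlapped between groups, with log2 FC of −0.06, −0.09 and 0.02. RPL5 and RPL11, which travel with 5S rRNA, had log2 FC of −0.07 (adjusted p = 0.615, edgeR) and −0.08 (0.620), again with overlap. The 4 X-linked members, RPL10, RPL36A, RPL39 and RPS4X, had a median of −0.09 and none called.

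The 3 highest values belonged to the large subunit. RPL13 had 1062, 1165 and 1146 CPM in ACM and 891, 1052 and 1032 in UCM, and the lowest ACM library lay just above the highest UCM library. Its log2 FC of 0.18 (SE 0.08, 95% interval −0.00 to 0.36) had an edgeR adjusted p of 0.219. RPL28 (log2 FC 0.10, adjusted p = 0.517) and RPL4 (0.08, adjusted p = 0.659) followed, both with overlap.

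RPL13A is of interest here because its promoter drives the constitutive reporter of the study's transgene. The gene itself had 1074, 1215 and 1140 CPM in ACM and 1010, 1173 and 1146 in UCM, and the groups overlapped. The log2 FC was 0.04 (SE 0.08, 95% interval −0.14 to 0.22, edgeR adjusted p = 0.808). A change larger than 0.04, up to the ends of this interval, is not excluded by 3 libraries per group. The cells sequenced carry no copy of the transgene, and an mRNA level is not a direct measure of promoter activity.

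The family was also split by other features of its genes. The 28 members with a snoRNA gene inside them had a median log2 FC of −0.06 and none called, and the 54 tested members without had −0.08 and 3 called. The 51 members with TOP-like letters near the annotated start had a median of −0.07 with 1 called, RPL22L1. The 15 tested members that had a promoter entry without these letters had −0.16 with 2 called, RPS26 and RPS27L. An unadjusted edgeR p of 0.05 or less in the lower direction was reached by 5 of the 51 and 5 of the 15. Among all genes tested 11.5% reached it. No difference between these classes was tested.

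GC content of the canonical transcript went along with the fold change. Across the 82 members Pearson's r was 0.445 and Spearman's rho 0.479, a description over genes that share libraries and are not replicates, and both stayed positive without paralogs (0.398 and 0.433, n = 77). Over 14095 genes the values were 0.122 and 0.168. The 28 members of lowest GC content (39.9 to 45.2%) had a median log2 FC of −0.10 with 25 below 0 and 8 apart lower, whereas the 27 of highest GC content (51.5 to 63.6%) had −0.02 with 16 below 0 and 1 apart lower. Of all 3097 genes tested in the lower range, 57.6% were below 0 and 19.3% apart lower, with a median of −0.05. Of the 4898 in the higher range, 45.6% were below 0 and 10.8% apart lower, with a median of 0.03. Libraries of one group also differed by GC: the members' deviations from their group mean had a rho with GC of −0.06, −0.27 and 0.28 in ACM and −0.55, 0.14 and 0.45 in UCM. After each library was corrected for GC by a smooth curve, a step chosen after the data were seen, RPS26 was still called lower (log2 FC −0.42, edgeR adjusted p = 0.0158). RPL22L1 (−0.60, 0.0571) and RPS27L (−0.33, 0.0634) no longer passed the test, with log2 FC close to the uncorrected ones.

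**Figure D5:**
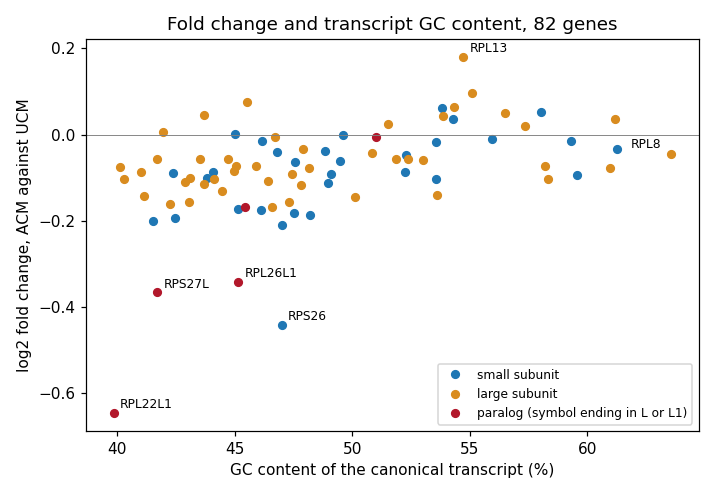
Log2 fold change of 82 members against the GC content of the canonical transcript, coloured by subunit or as a paralog. Members of low GC content lie mostly below 0, those above about 51% GC straddle it, and RPL22L1, RPS26, RPS27L and RPL26L1 lie below members of similar GC content.

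Members are also short, with a median effective length of 368 bases against 2080 for all genes tested. The 1640 other protein-coding genes shorter than 1000 bases had a median log2 FC of −0.04, with 57.4% below 0. No member's mean effective length differed between ACM and UCM by more than a factor of 1.1, although that of RPL14 varied between single libraries.

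Of the ribosomal proteins that the naming rule leaves out, FAU, RACK1 and RPL36AL were not called. FAU and RACK1 had log2 FC of −0.01 and 0.03. RPL36AL, a paralog of RPL36A, had 64.8, 65.9 and 66.1 CPM in ACM and 72.8, 82.2 and 84.4 in UCM, all ACM values below all UCM values. Its log2 FC of −0.28 (SE 0.08) had an edgeR adjusted p of 0.0580, and it was called in 6 of 19 alternatives.

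Other TOP mRNAs, 17 genes that include the elongation factors EEF1A1 and EEF2, had a median log2 FC of −0.02 with none called. The 9 chaperones that escort single ribosomal proteins had a median of −0.11 with none called. Among 12 genes of the growth control of ribosomal protein mRNAs, 2 rose. EIF4EBP1, the repressor of the cap-binding protein eIF4E that mTOR inactivates, had 277, 313 and 296 CPM in ACM and 206, 213 and 208 in UCM (log2 FC 0.50, SE 0.07, edgeR adjusted p = 0.00401). MYC, a transcription factor known to drive ribosome production, had 178, 183 and 195 CPM in ACM and 150, 141 and 160 in UCM (log2 FC 0.30, SE 0.07, adjusted p = 0.0371). Both were higher in 3 of 3 ACM libraries without overlap, while MTOR (log2 FC 0.01) and LARP1 (−0.07) overlapped. MYC was called in 12 of 19 alternatives and EIF4EBP1 in all 19.

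In the ribosomal stress and p53 list 1 of 4 genes rose, NOP53, a nucleolar protein that takes part in large subunit assembly and in control of p53. It had 150, 191 and 176 CPM in ACM and 124, 128 and 132 in UCM (log2 FC 0.43, SE 0.09, edgeR adjusted p = 0.0228), and was called in 11 of 19 alternatives. CDKN1A, the best known p53 target, had 11.4, 22.5 and 13.0 CPM in ACM and 9.99, 9.18 and 8.27 in UCM, all ACM values being higher, with an adjusted p of 0.113 (log2 FC 0.77, SE 0.25). RPS27L, a target of the same factor, had the opposite sign. The difference between these genes was not tested.

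Mitochondrial ribosomal proteins, which build a separate ribosome for mitochondrial mRNAs, leaned the same way as the cytosolic family. Of 79 tested, none was called higher and 2 lower, 70 had a log2 FC below 0, 22 were apart lower, and the median was −0.13. Of all genes tested 2.21% were called lower and 15.1% were apart lower. The called genes were MRPL27 (23.5 ± 2.33 CPM in ACM, 33.5 ± 2.62 in UCM, log2 FC −0.51, edgeR adjusted p = 0.0221) and MRPS36 (13.0 ± 0.264 and 18.1 ± 0.868, −0.48, 0.0291), the latter now known mainly as a subunit of the oxoglutarate dehydrogenase complex. Whether the cytosolic and mitochondrial lists differ was not tested.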

How the data were processed

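PolyA-enriched, paired-end libraries of 3 ACM and 3 UCM samples of BT-549 cells were compared. Per the submitters' processing notes, Trim Galore, STAR and RSEM were used for trimming, alignment to GRCh38 and quantification. Tool versions and the annotation are not given in the sources used here. The deposited expected counts are RSEM estimates, which divide reads that fit several genes among them and are not scaled for depth. The deposited TPM values are scaled by each library's effective gene length and to its sum. A deposited table of the authors' own fold changes and p-values was not used.

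Identifiers and versions of 61547 of 63140 genes matched GENCODE 44. Expected counts were rounded and fitted in R 4.3.3 with edgeR 4.0.16 (TMM, filterByExpr, robust quasi-likelihood, condition only, Benjamini-Hochberg over 14451 genes, common BCV 0.115). SE is the log2 FC over the root of F. Groups were apart when all 3 CPM values of a group lay on one side of the other group's. GC content and shared 100-base stretches are of the canonical transcript. Start windows and promoters (250 bases before to 50 after the start) are from RefSeq. The fit was also run on simulated counts with the same BCV for every gene and no GC differences between libraries. Such a run does not vouch for the calls made here.

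Members and lists were chosen with earlier results of these data known. Named were members called, the 3 highest and 3 lowest log2 FC, the 5 most and 5 least abundant, stalk members, RPL5, RPL11, RPS6, RPL13A, all paralogs, called genes of the lists, MYC, MTOR, LARP1 and EIF4EBP1. Other genes were named with a parent, a list or after their values were seen. Alternatives were DESeq2 1.42.0, limma 3.58.1 on log2(TPM + 1) and log2(TPM + 0.1), RLE factors, no scaling beyond totals, TMM without ribosomal protein genes, effective length offsets, filters of 1 count in total and 10 in each library, protein-coding genes only, members with pseudogenes, a replicate block, each library left out, and, added after the data were seen, a GC correction.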

Additional observations from a re-analysis of the deposited data

How the results depend on the processing

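No member was called higher in any of 19 alternatives. The count called lower, 3, became 1 with effective length offsets, 1 with the GC correction (added after the data were seen), and 7 with the replicate number as a block, the further 4 being RPL26L1, RPS20, RPS27A and RPS3A. The share of all genes called lower, 2.21% in the main fit, moved too, to 0.927%, 1.97% and 4.86% in that order. The count of members was 4 with the filter of 1 count in total (2.66% of all genes), which added RPL26L1. With limma at either pseudocount it was 2 (0.955% and 0.913% of all genes), and RPL22L1 was not called (adjusted p = 0.0520 and 0.0532). Leaving out 1 library gave 0 to 3, with 0 without ACM replicate 2, UCM replicate 2 or UCM replicate 3 and 1 without ACM replicate 3. Of all genes 0.591%, 0.474%, 0.42% and 1.29% were called lower in these fits, in the same order. Pairing by replicate number was checked across genes. Deviations of same-numbered libraries from their group means correlated at 0.318, 0.034 and 0.177 for numbers 1 to 3. Those of differently numbered libraries ran from −0.314 to 0.196. Among these only ACM replicate 3 with UCM replicate 2 (0.196) was above 0, and it exceeded the value for number 3. Whether the numbers mark pairs was not settled by these values, and the fit by condition only was kept as the main one. The median log2 FC of members stayed between −0.11 and −0.04, and the log2 ratio of their summed CPM between −0.09 and −0.01, and both kept their sign. Genes near 0 changed sign with no call in either direction. RPL39L became 0.0044 with DESeq2 and with RLE factors, 0.0093 with 10 counts in each library, 0.0016 with effective lengths, 0.0018 with the GC correction and 0.0007 among protein-coding genes. RPLP2 became −0.0036 with limma at either pseudocount and −0.0091 with the GC correction. RPL22 became −0.1071 with effective lengths, −0.1349 and −0.1347 with limma (0.1 and 1 added) and −0.0051 on totals, and MTOR in the same order −0.0116, −0.0326, −0.0320 and −0.0021. With 1 library left out the range was −0.05 to 0.0564 for RPL39L, −0.0206 to 0.0546 for RPLP2, −0.0581 to 0.0733 for RPL22, −0.0325 to 0.0661 for RPL10, −0.0894 to 0.0014 for RPS27, −0.0117 to 0.0936 for RPL13A and −0.0282 to 0.0843 for MTOR. The cause of these shifts was not tested. With 3 libraries in each group, small differences could not be resolved for single members. In the fit by condition only, RPL26L1 (log2 FC −0.34) and RPS20 (−0.21) did not pass the test (edgeR adjusted p = 0.117 and 0.213).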
